A study of Homo sapiens with 24 samples.

Results

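Genes of cholesterol and fatty acid synthesis were followed after knockdown of PRKCQ, the gene for protein kinase C theta, in T cell lymphoma lines. The members were 33 genes chosen by symbol for their roles: 5 that control the SREBP transcription factors, 8 enzymes from acetyl units to squalene, 10 enzymes from squalene to cholesterol, 4 genes of sterol transport or the LXR response and 6 of fatty acid and lipid synthesis. All 33 were tested in the TPA comparison, which lists 58780 genes. The DMSO comparison lists 13025 genes and holds 31 members, with ABCA1 and ELOVL6 missing from it.

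The groups were shPRKCQ with TPA, NTC with TPA, shPRKCQ with DMSO and NTC with DMSO, where shPRKCQ is a hairpin against PRKCQ and NTC a non-targeting control. Each was made in the mycosis fungoides line MyLa and in the Sézary syndrome line HuT 78, so the 24 libraries fall into 8 groups of 3. Cells received TPA, a phorbol ester and direct activator of protein kinase C, at 10 ng/ml, or its vehicle DMSO, for 24 h. Doxycycline at 1 µg/ml for at least 72 h was used for the knockdown, and the labels do not state whether NTC cultures received it or how many hairpins or clones stand behind shPRKCQ. Within a treatment, 6 shPRKCQ libraries of both lines were set against 6 NTC libraries, and no value per library or per line was used, so the spread between libraries and any difference between MyLa and HuT 78 are not analysed here.

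Cells keep their cholesterol level by a feedback loop. SREBP proteins are held in the endoplasmic reticulum by SCAP and the INSIG proteins while sterols are plentiful. When sterols fall, SCAP carries them to the Golgi, where they are cut and released to switch on genes of sterol and fatty acid synthesis. LXR receptors sense oxidised sterols and switch on export genes such as ABCA1 and ABCG1. In T cells, activation raises SREBP activity, and the lipids made are used for membrane growth. SREBP often acts together with NF-Y, which binds CCAAT, and Sp1, which binds GC boxes.

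Promoter windows are shown for the 4 members with the smallest p-values under TPA among those with a usable window, INSIG1, CYP51A1, ACLY and ACACA, and for SREBF2, which was added because its window alone holds the sterol response element searched. Each window runs from 250 bases before to 50 bases after a RefSeq transcript start (GRCh38.p14) and is written in the direction of transcription. Capitals mark a sterol response element (the 10 capitals in the SREBF2 window that begin with ATC), a CCAAT box (CCAAT) or an E-box (CACGTG) on either strand. ACLY has 2 windows and ACACA 3 in the table, and the window nearest the start of the gene in GENCODE 29 is given. For ACLY the transcript start of that window still lies 11520 bases inside the gene as annotated there.
INSIG1, chr7:155297628-155297927, plus strand: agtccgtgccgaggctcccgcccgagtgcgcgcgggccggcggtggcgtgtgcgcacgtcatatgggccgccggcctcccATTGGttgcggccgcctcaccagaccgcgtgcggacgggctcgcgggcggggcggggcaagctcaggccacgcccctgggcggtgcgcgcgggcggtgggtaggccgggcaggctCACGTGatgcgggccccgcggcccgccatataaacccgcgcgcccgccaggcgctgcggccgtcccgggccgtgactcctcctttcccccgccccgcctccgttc
CYP51A1, chr7:92134428-92134727, minus strand: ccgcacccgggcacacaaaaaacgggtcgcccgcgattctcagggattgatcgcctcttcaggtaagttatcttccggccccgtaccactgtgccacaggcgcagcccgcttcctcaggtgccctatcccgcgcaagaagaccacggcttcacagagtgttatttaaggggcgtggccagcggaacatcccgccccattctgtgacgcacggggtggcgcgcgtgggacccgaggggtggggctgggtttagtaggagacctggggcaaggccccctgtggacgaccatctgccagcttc
ACLY, chr17:41918973-41919272, minus strand: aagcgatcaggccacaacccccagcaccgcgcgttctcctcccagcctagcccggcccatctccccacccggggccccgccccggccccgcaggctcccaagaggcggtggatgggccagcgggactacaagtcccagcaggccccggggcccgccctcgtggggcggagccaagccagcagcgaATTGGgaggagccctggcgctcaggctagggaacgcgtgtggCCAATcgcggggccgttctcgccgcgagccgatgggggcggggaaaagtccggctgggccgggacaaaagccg
ACACA, chr17:37406787-37407086, minus strand: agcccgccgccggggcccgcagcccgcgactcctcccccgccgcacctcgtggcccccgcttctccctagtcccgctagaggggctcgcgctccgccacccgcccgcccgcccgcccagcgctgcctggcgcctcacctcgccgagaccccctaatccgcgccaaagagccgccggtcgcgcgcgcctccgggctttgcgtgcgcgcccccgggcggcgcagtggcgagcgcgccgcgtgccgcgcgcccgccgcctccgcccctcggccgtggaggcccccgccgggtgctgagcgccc
SREBF2, chr22:41832855-41833154, plus strand: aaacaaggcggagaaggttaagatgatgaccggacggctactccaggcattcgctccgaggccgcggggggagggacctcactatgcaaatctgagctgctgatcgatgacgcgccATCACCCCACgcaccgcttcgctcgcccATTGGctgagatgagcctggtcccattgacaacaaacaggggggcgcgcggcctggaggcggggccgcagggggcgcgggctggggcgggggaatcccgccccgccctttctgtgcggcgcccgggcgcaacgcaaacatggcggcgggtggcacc

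INSIG1 had a CCAAT box on the antisense strand and an E-box on the sense strand, whose first bases lie at -170 and -55 from the transcript start. SREBF2 had the sterol response element at -134 and an antisense CCAAT box at -106. ACLY had CCAAT boxes at -65 on the antisense and -23 on the sense strand. CYP51A1 and ACACA held none of the marked letters in these windows. Windows were found for 28 of the 33 members, without ACAT2, FDFT1, SQLE, ABCG1 and FASN.

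A CCAAT box was present in 20 of the 28 members (71.4%), against 39.7% of all genes in the RefSeq table. A gene was counted if any of its windows held the motif, so ACACA is among the 20 through a window not shown. Per window, the box was in 61.5% of 39 member windows and 34.6% of all windows. GC boxes (GGGCGG, either strand, not capitalised) were present in 27 of 28 (96.4%), against 48.3% of all genes. An E-box was found in 5 of 28, namely ABCA1, INSIG1, LSS, SC5D and SCAP, against 8.77% of all genes. The sterol response element was in the window of SREBF2 and in 16 of the 35116 windows of the table. No member window held the LXR direct repeat searched, a pair of AGGTCA half-sites 4 bases apart, which 7 of all windows hold. All motifs were searched as exact letters, apart from the 4 spacer bases of the repeat. Sites that differ at any letter were not counted, so absence here does not show that a gene lacks an element. The table includes non-coding genes, whose base composition may differ, and a match describes letters in a window, not a bound site.

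PRKCQ itself stood at 23.7% of the NTC level in TPA and 23.1% in DMSO, computed from log2 fold changes of -2.08 and -2.11 in the authors' deposited tables (adjusted p = 1.67e-15 and 5.61e-14). Of 10 T cell markers, 10 in TPA and 6 in DMSO passed the filter for an adjusted p-value, among them CD3D, CD3G and TRAC in both. CD2, CD3E, CD4 and LCK did not pass it in DMSO. Markers of other lineages also appear in the TPA table, 4 of 6 for B cells, 4 of 6 for myeloid and 5 of 6 for epithelial or stromal cells, and 0 of 4 for hepatocytes. The tables hold no levels, so listing does not show how much of a transcript was present. No marker was called in either treatment. In TPA, 3 epithelial or stromal markers and 1 B cell marker had an unadjusted p under 0.05, with fold changes of those lists between -1.10 and 0.80 on the log2 scale, and their part in the values below was not tested. In bulk RNA, fewer cells of a type and less RNA per cell cannot be told apart.

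The question for these genes was whether losing PRKCQ moved sterol and fatty acid synthesis, with the kinase stimulated by TPA and without it. No member passed an adjusted p of 0.05: 0 of 33 in TPA, where 0.113% of 19417 genes were called, and 0 of 31 in DMSO, where 0.108% of 13007 were. The test is the authors' own, for which the submitters' processing notes list DESeq2 1.18.1. At an unadjusted p under 0.05, a threshold chosen after seeing the data, there was 1 member in TPA, INSIG1, against 3.99% of all genes. In DMSO there were 2, SCAP and CYP51A1, against 3.04% of all genes. All 3 of these values were lower in shPRKCQ cells, as were 1.93% of all genes in TPA and 1.67% in DMSO at that threshold.

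Most members had fold changes a little under 0. In TPA 26 of 33 were negative (78.8%), where 47% of all genes tested were. The median log2 fold change of the members in TPA was -0.085, and that of all genes tested was 0.011. In DMSO 20 of 31 were negative (64.5%), where 47.7% of all genes tested were. The median of the members in DMSO was -0.14, and that of all genes tested was 0.0075. These genes share regulators and libraries and are not independent of each other, and the lists were described and not tested. Members were also chosen with earlier results of these data known.

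**Figure D1:**
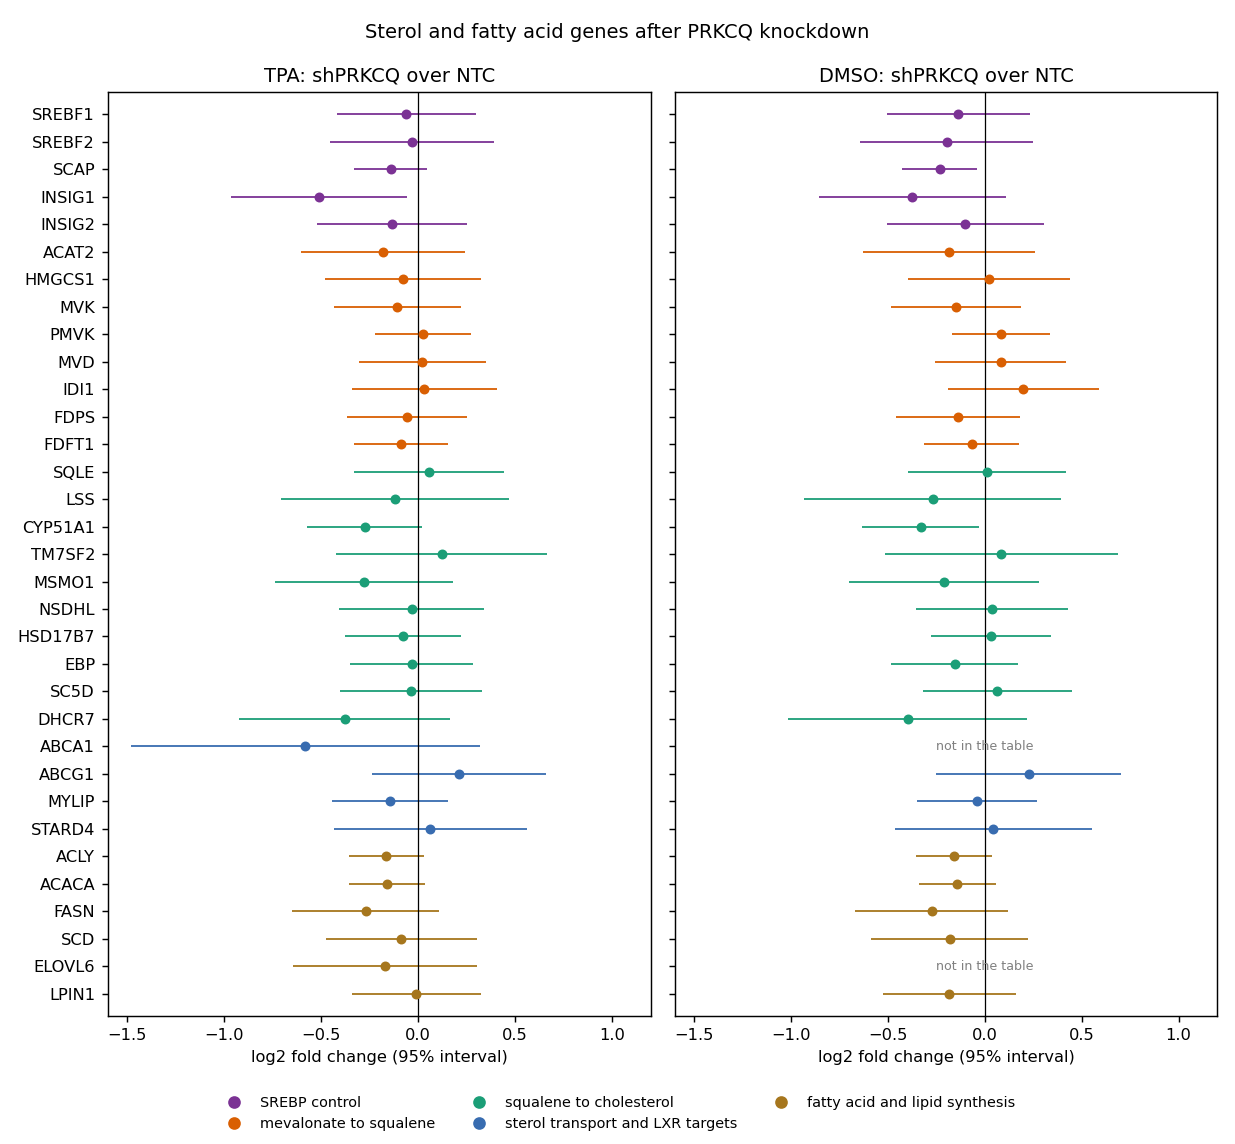
Log2 fold change of shPRKCQ over NTC for each gene (points) with its 95% interval (lines) in TPA (left) and DMSO (right), coloured by role; the intervals come from the authors' p-values. Nearly all intervals cover 0, except INSIG1 in TPA and SCAP and CYP51A1 in DMSO.

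Genes that control SREBP were all under 0 in both treatments, 5 of 5, with medians of -0.14 in TPA and -0.20 in DMSO. INSIG1 encodes an endoplasmic reticulum protein that holds the SCAP and SREBP complex back, and it is itself a classical SREBP target. It lies on chromosome 7 from 155297776 to 155310235, plus strand (GRCh38, ENSG00000186480.12). Its log2 fold change was -0.51 in TPA and -0.37 in DMSO in the authors' deposited tables (unadjusted p = 0.0274 and 0.129). That is 70.2% of the NTC level in TPA, with a 95% interval on the log2 scale from -0.97 to -0.057, and 77.2% in DMSO, with an interval from -0.86 to 0.11. In TPA 2.35% of all genes had a smaller p-value than INSIG1, and its adjusted p was 0.99998.

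INSIG2, the paralog that is not controlled in the same way by SREBP, was at -0.14 in TPA and -0.10 in DMSO in the authors' deposited tables. Its intervals ran from -0.52 to 0.25 in TPA and from -0.50 to 0.30 in DMSO and overlapped those of INSIG1. SCAP, the sterol-sensing escort of SREBP, lies on chromosome 3 from 47413694 to 47477126, minus strand. It was at -0.14 in TPA and -0.23 in DMSO in the authors' deposited tables (unadjusted p = 0.147 and 0.0177). SCAP stood at 90.8% of the NTC level in TPA and 85.1% in DMSO, and with a standard error of 0.096 and 0.098 it was the most tightly estimated member.

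SREBF1, which encodes the SREBP form that favours fatty acid genes, was at -0.061 in TPA and -0.14 in DMSO in the authors' deposited tables. SREBF2, which encodes the form that favours sterol genes, was at -0.029 and -0.20 in TPA and DMSO in the authors' deposited tables. Both genes carry an intronic microRNA of the same strand, MIR33B and MIR33A, in GENCODE 29. A transcript level does not show how much SREBP was cut and active.

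From acetyl units to squalene the signs were mixed. Of 8 genes, 5 in TPA and 4 in DMSO were negative, with medians of -0.066 and -0.023. ACAT2, the cytosolic thiolase that joins acetyl-CoA units, had the lowest value of the group in both, -0.18 in TPA and -0.18 in DMSO in the authors' deposited tables. HMGCS1, which makes HMG-CoA, was at -0.077 in TPA and 0.022 in DMSO in the authors' deposited tables. The kinases and the decarboxylase that turn mevalonate into isopentenyl diphosphate did not share a sign. MVK was at -0.11 and -0.15, PMVK at 0.027 and 0.084 and MVD at 0.022 and 0.081 in TPA and DMSO in the authors' deposited tables.

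IDI1, the isomerase of the isoprenoid units, had the highest value of this group in both treatments, 0.032 in TPA and 0.20 in DMSO in the authors' deposited tables (unadjusted p = 0.866 and 0.316). FDPS, which joins these units into farnesyl diphosphate, was at -0.055 in TPA and -0.14 in DMSO in the authors' deposited tables. FDPS has 8 named pseudogenes, so its reads may be split. FDFT1, squalene synthase and the first step committed to sterols, was at -0.086 in TPA and -0.068 in DMSO in the authors' deposited tables. Steps that follow each other in this stretch therefore differed in sign while every interval covered 0.

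Between squalene and cholesterol, 8 of 10 genes in TPA and 5 of 10 in DMSO were negative, with medians of -0.056 and -0.071. CYP51A1, the cytochrome P450 that strips a methyl group from lanosterol, lies on chromosome 7 from 92112151 to 92134803, minus strand. Its log2 fold change was -0.27 in TPA and -0.33 in DMSO in the authors' deposited tables (unadjusted p = 0.0698 and 0.0326). It stood at 82.7% of the NTC level in TPA and 79.5% in DMSO, with intervals from -0.57 to 0.022 and from -0.64 to -0.027. CYP51A1 has 3 named pseudogenes and overlaps 2 genes on its own strand, AC000120.2 and AC000120.3.

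DHCR7, the reductase of the last step to cholesterol, was at -0.38 in TPA and -0.40 in DMSO in the authors' deposited tables (unadjusted p = 0.174 and 0.206). Its intervals were wide, from -0.92 to 0.17 in TPA and from -1.01 to 0.22 in DMSO. MSMO1, which oxidises a further methyl group, was at -0.28 in TPA and -0.21 in DMSO in the authors' deposited tables. LSS, which closes the sterol rings to form lanosterol, was at -0.12 and -0.27 in TPA and DMSO in the authors' deposited tables. These 3 genes and CYP51A1 hold the lowest values of the group in both treatments.

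SQLE, the squalene epoxidase that controls flux at the entry of this stretch, was at 0.058 in TPA and 0.012 in DMSO in the authors' deposited tables. TM7SF2, a sterol reductase that acts after CYP51A1, was at 0.12 in TPA and 0.085 in DMSO in the authors' deposited tables, and overlaps VPS51 on its own strand. SQLE and TM7SF2 were the members of this group above 0 in both treatments. NSDHL and HSD17B7, which act with MSMO1 in demethylation, were at -0.033 and -0.077 in TPA and at 0.038 and 0.033 in DMSO in the authors' deposited tables. HSD17B7 has 2 named pseudogenes. EBP, an isomerase of the sterol ring, was at -0.032 in TPA and -0.15 in DMSO in the authors' deposited tables. SC5D, a desaturase that acts before DHCR7, was at -0.035 and 0.066 in TPA and DMSO in the authors' deposited tables.

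Fatty acid and lipid synthesis genes were all under 0, 6 of 6 in TPA and 5 of 5 in DMSO, with medians of -0.16 and -0.18. ACLY makes cytosolic acetyl-CoA from citrate, and ACACA carboxylates it to malonyl-CoA. ACLY was at -0.16 in TPA and -0.16 in DMSO in the authors' deposited tables (unadjusted p = 0.0982 and 0.117). ACACA was at -0.16 and -0.14 in TPA and DMSO in the authors' deposited tables (unadjusted p = 0.107 and 0.164). The standard errors of both lay between 0.0991 and 0.102, so these small values are estimated more closely than most members. FASN, the fatty acid synthase, was at -0.27 in TPA and -0.27 in DMSO in the authors' deposited tables (unadjusted p = 0.164 and 0.174).

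FASN stood at 83.0% of the NTC level in TPA and 82.7% in DMSO. SCD, which desaturates the product and has 1 named pseudogene, was at -0.085 in TPA and -0.18 in DMSO in the authors' deposited tables. ELOVL6, which lengthens it, had a value of -0.17 under TPA in the authors' deposited table. LPIN1, a phosphatidate phosphatase of lipid assembly, was at -0.0084 in TPA and -0.18 in DMSO in the authors' deposited tables. The fatty acid genes thus ranged from -0.27 to -0.0084 in TPA and from -0.27 to -0.14 in DMSO.

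Sterol transport and LXR genes went in both directions. ABCA1, which exports cholesterol to lipid-poor apolipoprotein, had a value of -0.58 under TPA in the authors' deposited table, the lowest value of all members (unadjusted p = 0.207). It also had the widest interval, from -1.48 to 0.32. ABCG1, the other cholesterol exporter under LXR control, had the highest value of all members in both treatments, 0.21 in TPA and 0.23 in DMSO in the authors' deposited tables (unadjusted p = 0.360 and 0.353). MYLIP, the LXR-induced ubiquitin ligase of lipoprotein receptors, was at -0.14 and -0.041 in TPA and DMSO in the authors' deposited tables. STARD4, a sterol carrier under SREBP control, was at 0.064 in TPA and 0.043 in DMSO in the authors' deposited tables.

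**Figure D2:**
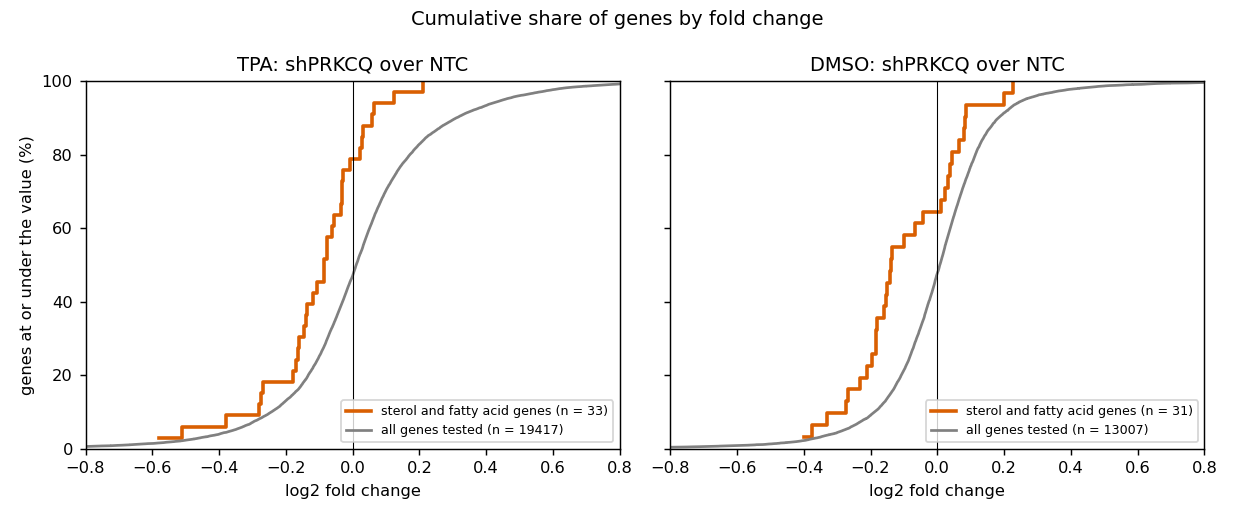
Cumulative share of genes (vertical axis, %) at or under a log2 fold change of shPRKCQ over NTC (horizontal axis, shown within 0.8 of 0) for the sterol and fatty acid genes and all genes tested, in TPA (left) and DMSO (right). The curve of the sterol and fatty acid genes lies left of that of all genes around 0, with medians of -0.085 and 0.011 in TPA and of -0.14 and 0.0075 in DMSO.

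The intervals bound how far these transcripts could have moved. In TPA 32 of 33 intervals lay within 1 of 0 on the log2 scale, the exception being ABCA1. In DMSO 30 of 31 did, the exception being DHCR7. Within 0.5 of 0 lay 20 intervals in TPA and 15 in DMSO, so for the rest a change of that size is compatible with the data. Intervals reached -0.5 for 10 members in TPA and 13 in DMSO, and 0.5 for 3 and 4. Standard errors of members had medians of 0.19 in TPA and 0.20 in DMSO. They were computed from p-values, and if the TPA fold changes were shrunken by the authors, which the tables leave unsettled, the TPA intervals are too narrow. In the other direction, the z-values of all genes tested had a robust SD of 0.840 in TPA and 0.754 in DMSO. Both are under 1, so the standard errors may be too large and the p-values conservative. Which of these holds was not tested.

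The treatments gave similar values for these genes. Of the 31 members in both tables, 27 had the same sign (87.1%), where 64.3% of all genes did, with 20 negative and 7 positive in both. The 7 positive genes were PMVK, MVD, IDI1, SQLE, TM7SF2, ABCG1 and STARD4. The other 4, HMGCS1, NSDHL, HSD17B7 and SC5D, were negative in TPA and positive in DMSO. Across the 31 genes TPA and DMSO fold changes correlated with Pearson's r = 0.829 and Spearman's rho = 0.779, against 0.381 and 0.398 across 13007 genes. These are descriptions over genes that share libraries within each table and were chosen with earlier results of these data known. No library is in both tables, but whether TPA and DMSO cultures were split from common stocks is not stated.

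**Figure D3:**
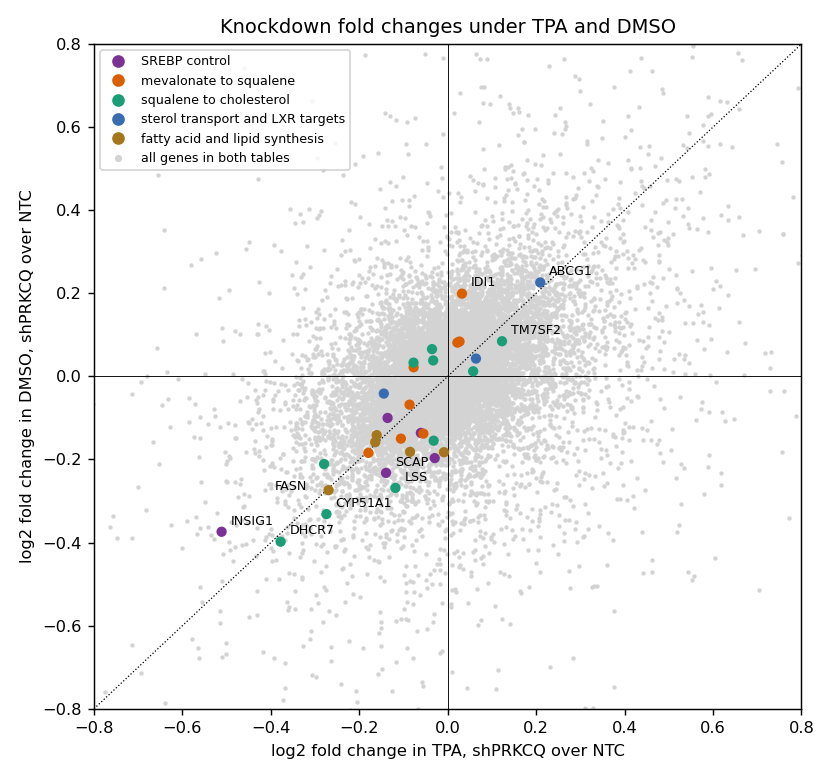
Log2 fold change of shPRKCQ over NTC in TPA (horizontal) and DMSO (vertical) for 31 sterol and fatty acid genes, coloured by role, over all genes in both tables (grey); the dotted line marks equal values and the axes end at 0.8 on each side. INSIG1, DHCR7 and CYP51A1 lie at the lower left and ABCG1 at the upper right.

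The knockdown effect was not shown to differ between TPA and DMSO for any member. By a z test of the difference of fold changes, adjusted over 13007 genes, 0 of 31 members passed, as did 0% of all genes. At an unadjusted p under 0.05 there were 0 members, against 0.438% of all genes. That share of all genes is far smaller than the threshold itself, so the test looks conservative. Its lack of calls is therefore weak evidence that the effects are equal. TPA minus DMSO ranged from -0.17 for IDI1 to 0.17 for LPIN1, with 16 members positive and 15 negative. The smallest unadjusted p was that of LPIN1 (0.476). For INSIG1 the difference was -0.14 with an interval from -0.80 to 0.53, and for SREBF2 it was 0.17 with an interval from -0.45 to 0.78, so differences of that size cannot be seen here.

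**Figure D4:**
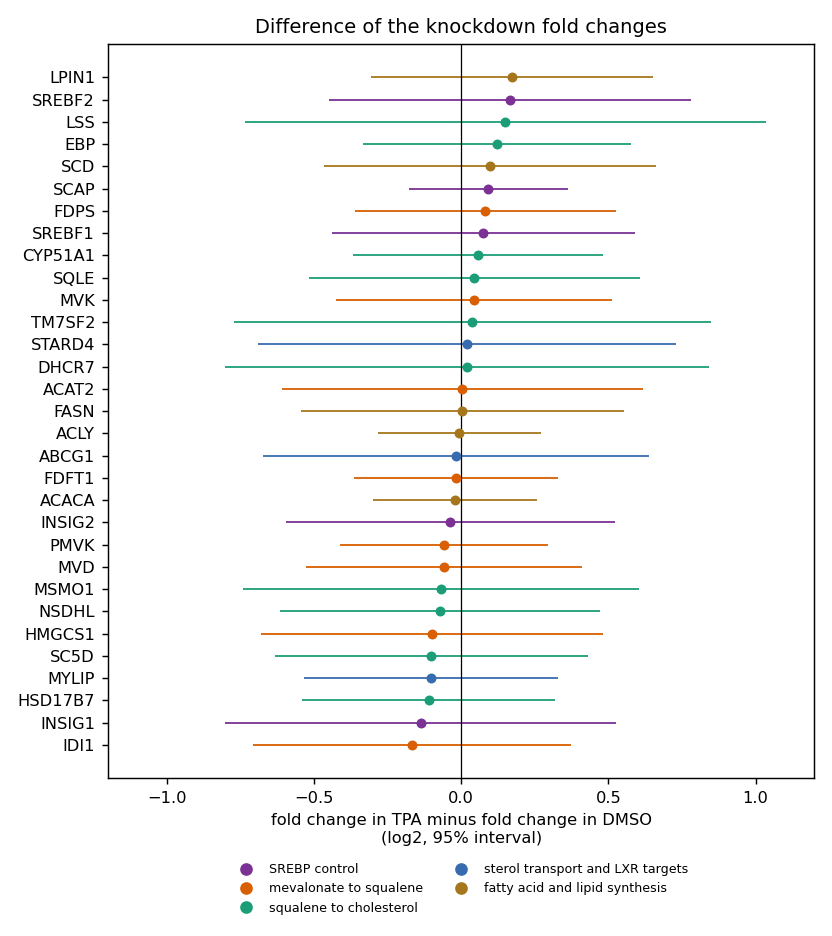
Log2 fold change in TPA minus that in DMSO for the 31 members in both tables (points) with 95% intervals (lines), ordered by value and coloured by role. All intervals cover 0, and the values run from -0.17 (IDI1) to 0.17 (LPIN1).

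A wider set of sterol and lipid genes outside the members was tested in the same way: 58 in TPA and 50 in DMSO. None was called in either treatment. At an unadjusted p under 0.05 there were 2 of 58 in TPA, LBR and MLXIP, against 3.99% of all genes. In DMSO there was 1 of 50, LBR, against 3.04% of all genes. Neither count exceeds the share of all genes. In TPA 28 of 58 were negative with a median log2 fold change of 0.0023, and in DMSO 28 of 50 with a median of -0.031. LBR, the lamin B receptor, is also a sterol reductase that catalyses the same step as TM7SF2. It was at -0.32 in TPA and -0.27 in DMSO in the authors' deposited tables (unadjusted p = 0.00513 and 0.0213; adjusted p = 0.583 and 0.99993). LBR thus stood at 80.1% and 83.0% of the NTC level in TPA and DMSO, and TM7SF2 at 109% and 106%. The TM7SF2 intervals, from -0.42 to 0.67 in TPA and from -0.52 to 0.68 in DMSO, cover 0 and also the LBR values. A difference between the 2 genes is therefore not shown.

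MLXIP, the glucose-sensing transcription factor MondoA, was at 0.18 in TPA and 0.094 in DMSO in the authors' deposited tables (unadjusted p = 0.0144 and 0.204). It did not pass after adjustment in either treatment.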

How the data were processed

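Per the labels' protocols, RNA was sequenced from 24 libraries made with a stranded poly(A) kit. The submitters' processing notes name STAR 2.5.3a, RSEM 1.3.0, DESeq2 1.18.1 and GRCh38, without roles. Per the file headers, the authors deposited log2 fold changes with their p-values, raw and adjusted, for each treatment. No counts were used, so depth is unknown. The direction is not stated; PRKCQ is negative in both tables, so negative values were read as lower in shPRKCQ.

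Members were matched by symbol, and all gene identifiers matched GENCODE 29. A standard error was computed as the fold change over the z of its p-value, and 95% intervals from it. The TPA minus DMSO difference was tested as a z over both errors, two-sided, with Benjamini-Hochberg adjustment over genes in both tables. The test was first run on simulated data whose errors were set to the computed ones. That run checks the calculation and could not show whether the computed errors are the right size. Adjusted p-values were checked against such an adjustment (largest relative difference 0.00451). In TPA 2910 genes share a fold change of 0.000537, so shrinkage by the authors is possible. Overlaps come from GENCODE 29: 9 of 33 members overlap a gene on the same strand and 18 an antisense gene. The strand setting of the counting is not given in the sources used here. Calls used the authors' adjusted p at a threshold of 0.05. All members are named; other pathway genes were named at an unadjusted p under 0.05 in either treatment, and 1 gene of that list is not reported here and enters none of its counts. Members and lists were chosen with earlier results of these data known. Alternatives changed the threshold, the genes adjusted over and the spread of z. The tools were pandas 2.3.3, scipy 1.17.1 and numpy 2.4.6 under Python 3.11.15.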

Additional observations from a re-analysis of the deposited data

How the results depend on the processing

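No member was called for the knockdown effect in TPA or DMSO at a threshold of 0.1 or 0.01, with absolute log2 fold changes required to reach 1, with adjustment over every gene with a p-value or over genes in both tables, without non-polyadenylated and histone genes, or with p-values rescaled by the robust SD of z (0.840 in TPA and 0.754 in DMSO). The threshold of 0.01 and the fold change cut can only remove calls, so their outcome was fixed once no member passed 0.05. In DMSO the adjustments over every gene with a p-value and over genes in both tables used the same 13007 genes as the main one. Their DMSO outcome was therefore fixed as well. For the TPA minus DMSO difference, no member was called at a threshold of 0.1, without non-polyadenylated and histone genes, on the difference of z-values or with rescaled p-values. With rescaled p-values the smallest adjusted p was 0.365 for INSIG1 in TPA and 0.119 for SCAP in DMSO. An unadjusted p under 0.05, chosen after seeing the data, gave 1 member in TPA, 2 in DMSO and 0 for the difference. The member median stayed negative, at -0.077 in TPA over the 31 members in both tables, and at -0.096 in TPA and -0.15 in DMSO relative to all genes tested. No paired analysis was possible because only fold changes and p-values per gene were used, with no library values, and left-out replicates were not run for the same reason. The limits set by depth could not be assessed without counts.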
